A study of Mus musculus with 9 samples.

Results

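Integrins and laminins are the receptors and part of the matrix through which cells hold on to basement membranes, and 36 of their genes were followed here through 3 mouse mammary tumour lines. They are all genes among the 19938 tested whose single symbol starts with Itga, is Itgb with 1 digit, or is Lama, Lamb or Lamc with a number: 18 integrin alpha genes, 8 integrin beta genes and 10 laminin chain genes, read from 37 array features. The rule chooses genes by name and by no measured value. Where a gene had several features, the one with the highest mean over the 9 arrays was read. The gene families and their roles were picked with earlier results of these data known. The study profiled snap-frozen mammary tumours grown from the transplantable cell lines NDL, Met1 and SSM2, with 3 samples and 3 Affymetrix Mouse Gene 1.0 ST arrays for each line. The tumours arose from cultured cells placed on both sides into mammary fat pads that had not been cleared of host epithelium, in FVB/NJ females aged 6 to 8 weeks, and were taken at a width of 5 to 10 mm. The lines are known by their origin: an activated ErbB2 (neu) transgene for NDL, the polyoma virus middle T oncogene for Met1, and expression of hormone receptors for SSM2. No sample was treated and each group is a single cell line, so a difference between groups is a difference between these lines and the host cells in their tumours. Whether the 3 samples of a line are separate animals or tumours is not stated in the labels, so each p measures the spread between samples only.

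An integrin is a pair of 1 alpha and 1 beta chain in the cell membrane, and the pairing sets the ligand: fibronectin, vitronectin and nephronectin through the RGD-binding alpha chains, collagens, laminins, or, on leukocytes, molecules of other cells. A laminin is a cross-shaped trimer of an alpha, a beta and a gamma chain. In the mammary gland, laminin-332 (which holds the Lama3 and Lamb3 chains) and the integrin of Itga6 and Itgb4 join basal epithelial cells to the basement membrane in hemidesmosomes, whereas the integrins that pair with Itgb2 belong to leukocytes.

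Values are log2 RMA signals, given array by array in the order of the replicate numbers. They compare arrays for 1 gene, not genes with each other. A gene was called when limma gave an adjusted p under 0.05 (Benjamini-Hochberg over all 19938 genes). Of the 36 genes, 22 were called in at least 1 of the 3 comparisons between lines (61.1%, against 28.7% of all genes): 8 in 1 comparison, 13 in 2, and only Lamb3 in all 3. Between NDL and Met1, 6 were higher in NDL (8.88% of all genes were) and 9 lower (10.2% of all genes), together 41.7% of the members against 19.1% of all genes called. Between NDL and SSM2, 8 were higher in NDL (9.35% of all genes) and 4 lower (7.52%), together 33.3% against 16.9%. Between Met1 and SSM2, 8 were higher in Met1 (7.1% of all genes) and 2 lower (4.71%), together 27.8% against 11.8%. The median difference of the 36 members was -0.19, -0.02 and 0.23 on the log2 scale in these 3 comparisons, beside 0.06, 0.09 and 0.04 for all genes. Each line takes part in 2 of the comparisons, so they are not independent of each other.

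These counts depended on single arrays. The 6 members higher in NDL than in Met1 became 3 without Met1 replicate 2, 2 without NDL replicate 1, and 1 without NDL replicate 2, Met1 replicate 1 or Met1 replicate 3. The 8 higher in NDL than in SSM2 became 5 without NDL replicate 1 or 2, SSM2 replicate 2 or any Met1 replicate, and the 4 lower became 2 without NDL replicate 1 and 9 without SSM2 replicate 3. For Met1 against SSM2, the 8 higher members became 5 without Met1 replicate 1 or 3, and the 2 lower became 1 without SSM2 replicate 1 or any Met1 replicate. Of the 37 calls in all, 13 held in every alternative setting in which the gene was tested: Itga5, Itgav, Itga10 and Lamb2 between NDL and Met1, Itga8, Lama3 and Lama4 between NDL and SSM2, and Itga5, Itga8, Itga10, Itga11, Lamb3 and Lamc1 between Met1 and SSM2. No call changed direction.

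**Figure D1:**
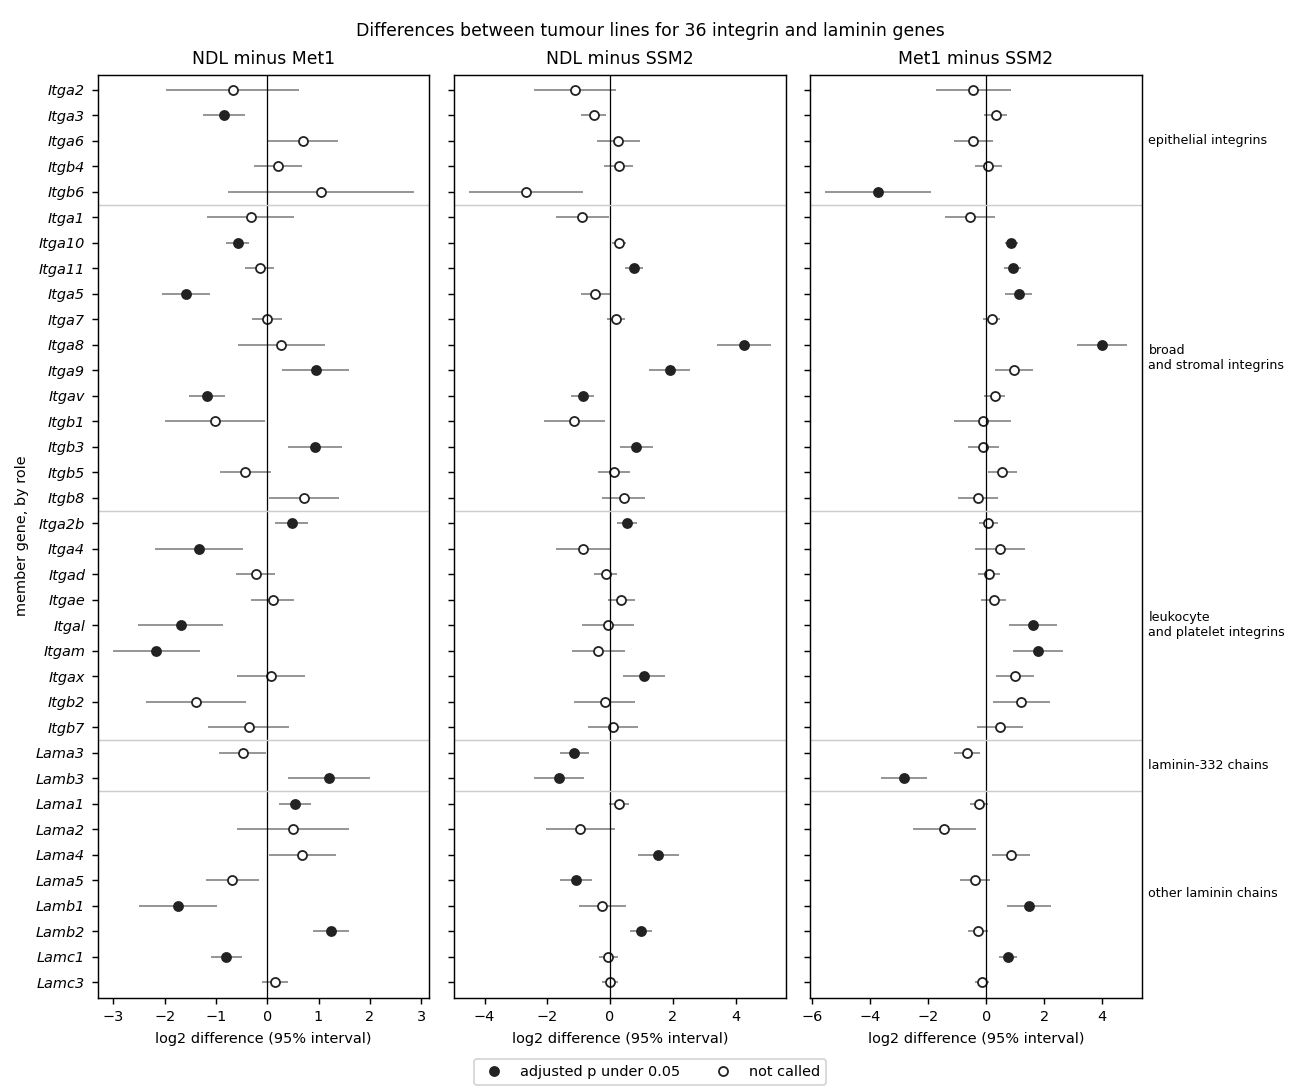
Log2 difference of each of the 36 integrin and laminin genes in NDL minus Met1, NDL minus SSM2 and Met1 minus SSM2, with unadjusted 95% intervals from limma; filled points have an adjusted p under 0.05 over all genes. Itga8 stands at 4.27 and 4.00 in both comparisons with SSM2, Itgb6 at -3.73 and Lamb3 at -2.84 in Met1 minus SSM2, and Itgam at -2.16 in NDL minus Met1.

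Itga8, the alpha chain of the nephronectin receptor, which pairs with Itgb1, set SSM2 apart from the other lines. Its signal was 9.78, 9.51 and 10.50 in NDL, 9.79, 10.28 and 8.91 in Met1, and 5.73, 5.93 and 5.33 in SSM2. Every NDL and every Met1 array was above every SSM2 array by about 3 log2 units or more, while NDL and Met1 overlapped. The gene was 19.2-fold higher in NDL than in SSM2 (log2 difference 4.27 ± 0.37, SE, adjusted p = 0.000195) and 16.0-fold higher in Met1 than in SSM2 (4.00 ± 0.37, adjusted p = 0.000376). Between NDL and Met1 the difference was 0.27 (95% interval -0.58 to 1.12, adjusted p = 0.649). In bulk tumours, fewer cells of a type and less RNA per cell cannot be told apart, for this gene and for all that follow.

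Itga9, which with Itgb1 binds tenascin-C and a spliced segment of fibronectin, followed a different order. It read 8.56, 8.55 and 8.32 in NDL, 7.74, 7.72 and 7.14 in Met1, and 7.18, 6.04 and 6.49 in SSM2. NDL lay above all other arrays, and Met1 overlapped with SSM2 through 1 array of each. The gene was 3.74-fold higher in NDL than in SSM2 (1.90 ± 0.28, adjusted p = 0.00299). Its difference between NDL and Met1, 0.94, was only just called (adjusted p = 0.04995) and ran from 0.00573 to 0.373 over the alternatives. That call ended without any single array of Met1, without NDL replicate 1 or 2, and without SSM2 replicate 3 (0.0607 to 0.164). Between Met1 and SSM2 the difference of 0.96 was not called (adjusted p = 0.0645, but 0.0116 without SSM2 replicate 1, with 0.0116 to 0.205 over the alternatives).

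Itga5, the alpha chain of the classical fibronectin receptor, was highest in Met1. It read 7.09, 7.65 and 6.88 in NDL, 8.84, 8.78 and 8.77 in Met1, and 7.78, 7.37 and 7.87 in SSM2. All Met1 arrays exceeded all others. The gene was 3.01-fold lower in NDL than in Met1 (-1.59 ± 0.21, adjusted p = 0.00123) and 2.18-fold higher in Met1 than in SSM2 (1.12 ± 0.21, adjusted p = 0.00934). Between NDL and SSM2 the difference was -0.47 (adjusted p = 0.149), called without NDL replicate 2 (0.0372, with 0.0372 to 0.326 over the alternatives).

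Itgav, the shared alpha chain of the vitronectin receptors and of the integrins that release latent TGF-beta, was lowest in NDL. Its values were 9.13, 9.27 and 9.48 in NDL, 10.27, 10.63 and 10.49 in Met1, and 10.40, 10.13 and 9.98 in SSM2. No NDL array reached the lowest array of the other lines. The gene was 2.25-fold lower in NDL than in Met1 (-1.17 ± 0.15, adjusted p = 0.00131) and lower by 0.88 ± 0.15 than in SSM2 (log2 difference -0.88, adjusted p = 0.00651), and its 0.29 between Met1 and SSM2 was not called. Itgb1, the beta chain that most of these alpha chains share, was measured at 10.02, 8.88 and 10.88 in NDL, 10.86, 11.09 and 10.88 in Met1, and 11.38, 10.88 and 10.95 in SSM2. The NDL arrays spread over 2 log2 units, more than either of the other lines. Exactly the same value, 10.88, was deposited for NDL replicate 3, Met1 replicate 3 and SSM2 replicate 2. Its differences of -1.02 between NDL and Met1 (adjusted p = 0.135) and -1.14 between NDL and SSM2 (adjusted p = 0.0985) were not called, and both passed without NDL replicate 3 (0.0119 and 0.00852). Over the alternatives these p-values ran from 0.00462 to 0.940 and from 0.00852 to 0.729.

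The other broadly expressed or stromal integrin genes differed by less than 2-fold. Itga10, a collagen receptor chain best known from cartilage, was lower in NDL than in Met1 (-0.58, adjusted p = 0.0044) and higher in Met1 than in SSM2 (0.86, adjusted p = 0.00101). Itga11, the collagen receptor chain of fibroblasts, was higher in both NDL (0.77, adjusted p = 0.00503) and Met1 (0.92, adjusted p = 0.00257) than in SSM2. Itgb3, the beta chain of a vitronectin receptor, was higher in NDL than in Met1 (0.94, adjusted p = 0.0241) and SSM2 (0.83, adjusted p = 0.0421). The first of these Itgb3 calls ended without NDL replicate 1 or 2 or Met1 replicate 1 or 3 (0.0543 to 0.0869), and the second without any single array other than NDL replicate 3 and SSM2 replicate 1 (0.0647 to 0.131). Itga1, Itga7, Itgb5 and Itgb8 were called in no comparison. Over the whole group of 12 genes the calls were 2 higher and 3 lower in NDL against Met1. They were 4 higher and 1 lower in NDL against SSM2, and 4 higher and none lower in Met1 against SSM2. The calls made up 41.7%, 41.7% and 33.3% of the group, beside 19.1%, 16.9% and 11.8% of all genes. The 2 higher against Met1 were Itga9 and Itgb3, of which neither passed without NDL replicate 1 or 2 or Met1 replicate 1 or 3. The single lower gene against SSM2, Itgav, was joined by 2 more without NDL replicate 3 and by 1 more without NDL replicate 2 or SSM2 replicate 2. The fibroblast marker list moved in mixed directions between Met1 and each of the other lines. In NDL, 2 of its 7 genes were higher and 2 lower than in Met1. In Met1, 2 were likewise higher and 2 lower than in SSM2. These were 57.1% of the list in each comparison, beside 19.1% and 11.8% of all genes called. In NDL against SSM2, 1 of 7 was lower, a smaller share than the 16.9% of all genes. The 2 higher in Met1 than in SSM2 became 0 without NDL replicate 1, SSM2 replicate 2 or any single Met1 array and 1 without the others but SSM2 replicate 1, and the 2 lower became 1 without NDL replicate 1, Met1 replicate 1 or 3 or SSM2 replicate 1 or 2. The single gene lower in NDL than in SSM2 was lost without NDL replicate 1 or 2 or SSM2 replicate 2, and there were 3 without SSM2 replicate 3. Its mean signal was 8.72 to 8.93 on the NDL arrays, 8.44 to 9.28 on the Met1 arrays and 8.88 to 10.58 on the SSM2 arrays. The part of stromal cells in these integrin differences was not tested.

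**Figure D2:**
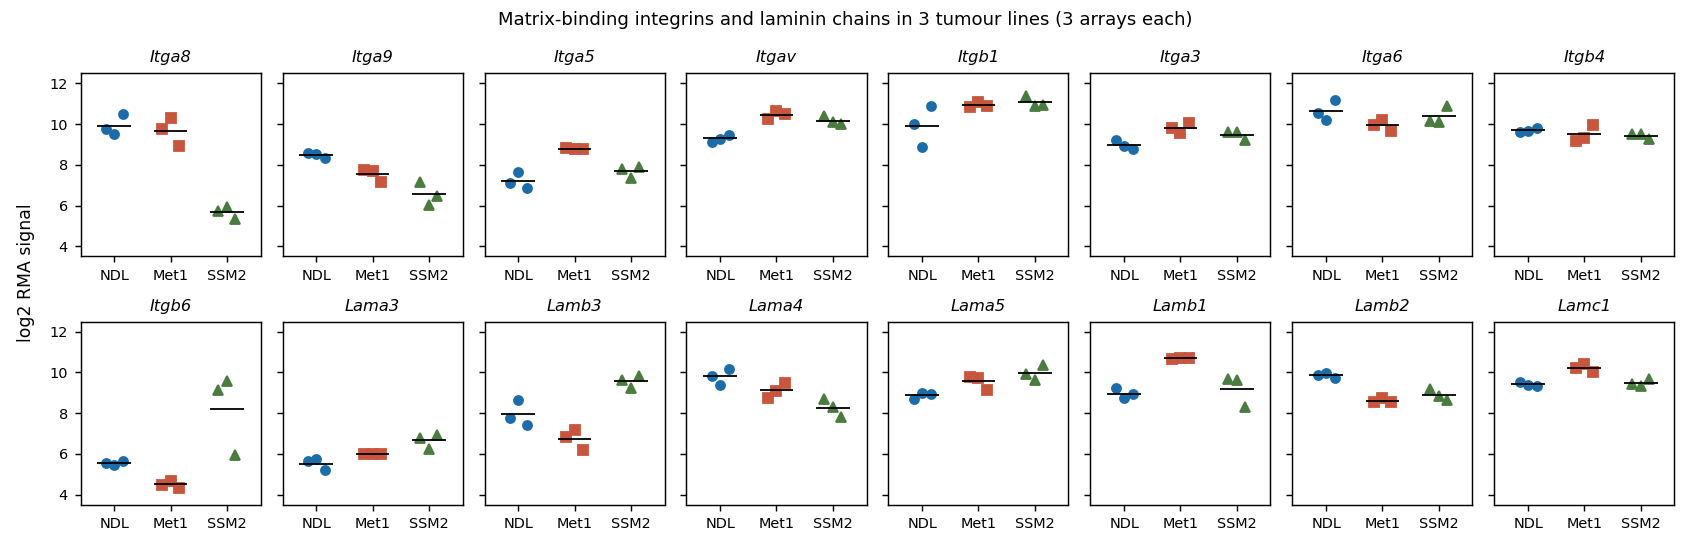
Log2 RMA signal of 16 integrin and laminin genes on every array (points) with the mean of each line (bars), for NDL, Met1 and SSM2. Itga8 lies between 8.91 and 10.50 in NDL and Met1 and between 5.33 and 5.93 in SSM2, and Lamb3 is above 9 on the 3 SSM2 arrays only.

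Among the integrins of epithelium, the hemidesmosome pair Itga6 and Itgb4 was not called in any comparison. Itga6 read 10.54, 10.19 and 11.20 in NDL, 9.95, 10.22 and 9.65 in Met1, and 10.16, 10.10 and 10.87 in SSM2. Itgb4 read 9.62, 9.68 and 9.82 in NDL, 9.15, 9.34 and 9.98 in Met1, and 9.53, 9.49 and 9.25 in SSM2. Both genes overlapped between NDL and Met1 and between Met1 and SSM2. For Itga6 the difference was 0.70 between NDL and Met1 (95% interval 0.01 to 1.39, adjusted p = 0.145), 0.26 between NDL and SSM2 (adjusted p = 0.547) and -0.44 between Met1 and SSM2 (95% interval -1.12 to 0.25, adjusted p = 0.472). Itgb4 differed by 0.21 (95% interval -0.25 to 0.68, adjusted p = 0.504), 0.28 (adjusted p = 0.344) and 0.07 (95% interval -0.40 to 0.53, adjusted p = 0.919). These intervals leave out a difference of 1 log2 unit for Itgb4, but not for Itga6 between NDL and Met1 or between Met1 and SSM2.

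The marker genes of epithelium behaved otherwise in the same arrays. All 8 of 8 (among them Epcam, Krt8 and Krt18) were higher in NDL than in Met1, beside 8.88% of all genes. The median log2 difference was 3.28. All 8 were lower in Met1 than in SSM2, beside 4.71% of all genes, with a median of -3.45. Their mean signal was 10.25 to 10.42 on the NDL arrays, 5.94 to 7.60 on the Met1 arrays and 10.52 to 10.83 on the SSM2 arrays, so the Met1 tumours, although labelled as mammary, read low for the defining markers of epithelium. The mean of the 5 epithelial integrin genes was 8.04 to 8.31 on the NDL arrays, 8.00 to 8.16 on the Met1 arrays and 8.31 to 9.39 on the SSM2 arrays, with a median difference of 0.21 between NDL and Met1 and -0.44 between Met1 and SSM2. The difference between the 2 lists was not tested.

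Itgb6, the epithelial beta chain of a receptor that activates latent TGF-beta, was high on some SSM2 arrays only. It read 5.54, 5.45 and 5.66 in NDL, 4.49, 4.66 and 4.34 in Met1, and 9.14, 9.58 and 5.95 in SSM2. SSM2 replicate 3 lay near the NDL arrays, more than 3 log2 units under the other SSM2 arrays. The gene was 13.2-fold lower in Met1 than in SSM2 (-3.73 ± 0.80, adjusted p = 0.0183). That size is uncertain, because the Met1 mean of 4.50 lies under the 25th percentile of the signals of all genes on all arrays (4.87). Over the alternatives that p ran from 1.38e-05 to 0.0663, and the call ended without any single Met1 array and without SSM2 replicate 1 or 2 (0.053 to 0.0663). Against NDL the difference of -2.67 was not called (adjusted p = 0.0527), but passed without SSM2 replicate 3 (1.71e-05), as did the 1.05 of NDL over Met1 (0.395, and 0.00219 without that array). Over the alternatives these p-values ran from 1.71e-05 to 0.365 and from 0.00214 to 0.715.

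Itga3, the alpha chain of an epithelial laminin receptor, was lower in NDL than in Met1 (-0.85 ± 0.18, adjusted p = 0.0116), with 8.97 ± 0.23 in NDL and 9.81 ± 0.24 in Met1 (SD, n = 3 each). Itga2, a collagen receptor chain, was not called and had 1 array apart from the rest, SSM2 replicate 1. The NDL arrays read 5.58, 5.98 and 6.12, those of Met1 6.61, 7.02 and 6.06, and those of SSM2 8.51, 6.29 and 6.23. In total 1 of the 5 epithelial integrin genes was called between NDL and Met1 (20%, beside 19.1% of all genes). Between Met1 and SSM2, 1 was called (20%, beside 11.8%). None was called between NDL and SSM2 (limma, 2 at an unadjusted p under 0.05), where 16.9% of all genes were called. Without SSM2 replicate 3, the last count became 2, with Itga3 at an adjusted p of 0.0496 (0.0771 on all arrays, 0.0496 to 0.188 over the alternatives) beside Itgb6.

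The promoter windows of 4 genes with large differences are shown for their sequence context. RefSeq's table for GRCm38.p6 held a window of 250 bases before to 50 after the start for 23 of the 36 members. Itga3, Itgb6 and Lamb3 have 2 windows there, of which the most upstream was searched and the other was not. Both strands were searched for the AP-1 site (TGANTCA) and a PU.1-like ETS site (GAGGAA, which contains the ETS core GGAA), and these are in capitals. The Itga8 window lies at chr2:12301895-12302194 on the minus strand, that of Lamb3 at chr1:193301744-193302043 on the plus strand, that of Itgb6 at chr2:60722554-60722853 on the minus strand and that of Itga5 at chr15:103366742-103367041 on the minus strand.
Itga8: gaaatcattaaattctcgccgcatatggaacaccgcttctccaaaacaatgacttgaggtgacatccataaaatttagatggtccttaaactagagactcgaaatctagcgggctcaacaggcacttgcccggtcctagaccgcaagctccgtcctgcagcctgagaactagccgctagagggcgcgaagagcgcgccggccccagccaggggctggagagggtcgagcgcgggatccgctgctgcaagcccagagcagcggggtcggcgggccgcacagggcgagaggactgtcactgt
Lamb3: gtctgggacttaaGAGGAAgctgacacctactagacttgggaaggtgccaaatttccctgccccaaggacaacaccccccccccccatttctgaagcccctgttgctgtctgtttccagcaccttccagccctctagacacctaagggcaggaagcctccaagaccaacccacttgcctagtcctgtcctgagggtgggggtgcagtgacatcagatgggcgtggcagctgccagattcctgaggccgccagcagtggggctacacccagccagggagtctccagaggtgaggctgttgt
Itgb6: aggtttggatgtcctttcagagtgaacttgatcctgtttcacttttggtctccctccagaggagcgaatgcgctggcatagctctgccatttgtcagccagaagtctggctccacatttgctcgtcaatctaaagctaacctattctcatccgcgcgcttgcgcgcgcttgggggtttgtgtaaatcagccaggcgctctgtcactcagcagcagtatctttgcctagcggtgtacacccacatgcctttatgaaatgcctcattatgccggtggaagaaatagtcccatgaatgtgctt
Itga5: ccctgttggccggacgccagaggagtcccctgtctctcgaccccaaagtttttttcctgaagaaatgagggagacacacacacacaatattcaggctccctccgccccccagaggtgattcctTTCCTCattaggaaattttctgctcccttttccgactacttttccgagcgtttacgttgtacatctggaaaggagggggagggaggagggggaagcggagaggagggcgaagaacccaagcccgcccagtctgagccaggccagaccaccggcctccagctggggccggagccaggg
The windows of Lamb3 and Itga5 each hold 1 PU.1-like match, and those of Itga8 and Itgb6 hold neither motif. AP-1 matches were in the windows of 2 of the 23 members (8.7%, against 7.81% of 32851 windows of all genes), and PU.1-like matches in 12 (52.2%, against 28.3%). The ETS core was in 22 of the 23 (96.0% of all windows), the E-box CAGGTG in 6 (26.1%, against 20.2%), the GC box GGGCGG in 11 (47.8%, against 35.7%), and TATAAA in none (13.6% of all windows). A match is a string of letters in a window, and no binding was measured.

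Lamb3 and Lama3, chains of laminin-332, had their highest values in SSM2. Lamb3 read 7.76, 8.63 and 7.43 in NDL, 6.83, 7.18 and 6.20 in Met1, and 9.65, 9.24 and 9.85 in SSM2. The 3 lines did not overlap in this gene, with SSM2 at the top and Met1 at the bottom. It was 7.18-fold lower in Met1 than in SSM2 (-2.84 ± 0.35, adjusted p = 0.00142) and, at 3.12-fold, also lower in NDL (-1.64 ± 0.35, adjusted p = 0.0150). The second call ended without NDL replicate 1 (0.0625, with 0.00484 to 0.0625 over the alternatives). Lamb3 was also 2.30-fold higher in NDL than in Met1 (1.20 ± 0.35, adjusted p = 0.0437). That call ended without NDL replicate 1 or 2, Met1 replicate 1 or 3 or SSM2 replicate 1 or 2 (0.0546 to 0.144, with 0.00892 to 0.370 over the alternatives).

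Lama3 read 5.63, 5.75 and 5.19 in NDL, 6.00 on each of the 3 Met1 arrays, and 6.80, 6.25 and 6.93 in SSM2. The Met1 arrays hold exactly the same deposited value, which makes the spread of that line 0 and narrows the fitted spread of the gene. The lines did not overlap, with NDL lowest. In NDL, Lama3 was 2.20-fold lower than in SSM2 (-1.14 ± 0.20, adjusted p = 0.00671, and 0.0374 from those 2 lines alone), while -0.48 between NDL and Met1 (adjusted p = 0.139) and -0.66 between Met1 and SSM2 (adjusted p = 0.0745) were not called. Basal epithelial markers went the same way against SSM2: 4 of 5 were lower and 1 higher in NDL than in SSM2. In Met1, 3 of 5 were lower than in SSM2. The calls made up 100% and 60% of the list, beside 16.9% and 11.8% of all genes. The mean of these 5 genes was 5.98 to 6.36 on the NDL arrays, 5.44 to 7.09 on the Met1 arrays and 8.42 to 9.25 on the SSM2 arrays. Their part in the laminin-332 differences was not tested.

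Of the other laminin chains, the beta chains showed opposite orders between NDL and Met1. Lamb1, the common beta chain, read 9.22, 8.74 and 8.92 in NDL, 10.66, 10.71 and 10.73 in Met1, and 9.69, 9.61 and 8.32 in SSM2. Lamb2, the beta chain of vessel, muscle and kidney basement membranes, read 9.88, 9.98 and 9.73 in NDL, 8.57, 8.74 and 8.54 in Met1, and 9.19, 8.84 and 8.63 in SSM2. Met1 was above all other arrays for Lamb1, and NDL above all other arrays for Lamb2. Lamb1 was 3.34-fold lower in NDL than in Met1 (-1.74 ± 0.33, adjusted p = 0.0077), and Lamb2 was 2.38-fold higher in NDL than in Met1 (1.25 ± 0.15, adjusted p = 0.000899). In NDL against SSM2, Lamb2 was higher by 0.97 ± 0.15 (adjusted p = 0.00374). Lamb1 was 2.81-fold higher in Met1 than in SSM2 (1.49 ± 0.33, adjusted p = 0.0214), a call that ended without any single Met1 array (0.0704 to 0.0720, with 0.00405 to 0.0720 over the alternatives). Its difference of -0.25 between NDL and SSM2 had an adjusted p of 0.613, and 0.0204 without SSM2 replicate 3 (0.0204 to 0.997 over the alternatives). Lamc1, the gamma chain that pairs with both, followed Lamb1, with 9.42 ± 0.11 in NDL, 10.22 ± 0.20 in Met1 and 9.47 ± 0.16 in SSM2 (SD, n = 3 each). Lamc1 was lower in NDL than in Met1 (-0.80, adjusted p = 0.0045) and higher in Met1 than in SSM2 (0.74, adjusted p = 0.00898).

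The alpha chains divided between NDL and SSM2. Lama4, the chain of vessel and mesenchymal laminins, read 9.84, 9.40 and 10.18 in NDL, 8.76, 9.11 and 9.50 in Met1, and 8.67, 8.30 and 7.83 in SSM2. Lama5, the alpha chain of most adult epithelial basement membranes, read 8.70, 8.97 and 8.95 in NDL, 9.79, 9.73 and 9.14 in Met1, and 9.90, 9.62 and 10.34 in SSM2. NDL was above SSM2 on every array for Lama4 and below it on every array for Lama5. Lama4 was 2.91-fold higher in NDL than in SSM2 (1.54 ± 0.28, adjusted p = 0.00814). In the same comparison Lama5 was 2.11-fold lower (-1.08 ± 0.23, adjusted p = 0.0144, and 0.0615 without NDL replicate 1, with 0.00528 to 0.188 over the alternatives). In NDL against Met1 neither was called, with 0.68 for Lama4 (adjusted p = 0.135) and -0.68 for Lama5 (adjusted p = 0.0717, but 0.0354 without Met1 replicate 3 and 0.0418 without SSM2 replicate 3, with 0.00198 to 0.377 over the alternatives). Lama1, a chain of embryonic basement membranes, was higher in NDL than in Met1 (0.54, adjusted p = 0.0243), a call that ended without NDL replicate 2 or any single Met1 array (0.0603 to 0.0903). Lama2, the muscle laminin chain, and Lamc3 were not called, but Lama2 passed without SSM2 replicate 3 in NDL against SSM2 (-0.94, adjusted p = 0.194, and 0.0135 without that array, with 0.0135 to 0.605 over the alternatives) and in Met1 against SSM2 (-1.44, adjusted p = 0.0964, and 0.00458, with 0.00458 to 0.285). The deposited Lama2 value was the same, 5.92, on all NDL arrays and on Met1 replicate 3. Of the endothelial markers, 2 of 6 were lower in NDL than in SSM2 (33.3%, beside 16.9% of all genes called). None was called in the other comparisons. At an unadjusted p under 0.05 (limma), 1 was lower in NDL than in Met1 and 3 lower in Met1 than in SSM2. The mean of the list was 6.69 to 6.89 on the NDL arrays, 6.73 to 7.07 on the Met1 arrays and 7.03 to 7.81 on the SSM2 arrays. The count of 2 became 1 without SSM2 replicate 1 or 2. Without NDL replicate 3 or SSM2 replicate 3 there were 2 lower in Met1 than in SSM2. The part of vessel cells in the laminin differences was not tested.

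Of the 9 leukocyte and platelet integrin genes, 1 was higher and 3 lower in NDL than in Met1. In NDL, 2 were higher than in SSM2, and 2 were higher in Met1 than in SSM2. Together these were 44.4%, 22.2% and 22.2% of the group, beside 19.1%, 16.9% and 11.8% of all genes called. Itgam and Itgal were the members of this group called highest in Met1 against both other lines. Itgam (CD11b), the alpha chain of the complement receptor of macrophages and neutrophils, read 7.66, 7.87 and 7.30 in NDL, 9.68, 9.62 and 10.01 in Met1, and 8.87, 7.87 and 7.21 in SSM2. Itgal (CD11a), the alpha chain of the ICAM-binding integrin LFA-1, read 6.25, 7.01 and 6.14 in NDL, 8.02, 7.93 and 8.53 in Met1, and 7.29, 6.41 and 5.95 in SSM2. For both genes every Met1 array was above every other array. Itgam was 4.48-fold lower in NDL than in Met1 (-2.16 ± 0.37, adjusted p = 0.00472) and 3.45-fold higher in Met1 than in SSM2 (1.79 ± 0.37, adjusted p = 0.0163). The second call ended without Met1 replicate 1 or 3 or SSM2 replicate 2 (0.0549 to 0.0633, with 0.00179 to 0.0633 over the alternatives). Itgal was 3.22-fold lower in NDL than in Met1 (-1.69 ± 0.36, adjusted p = 0.0131) and 3.05-fold higher in Met1 than in SSM2 (1.61 ± 0.36, adjusted p = 0.0228). The first ended without NDL replicate 1 (0.0569) or Met1 replicate 3 (0.0542), with 0.000433 to 0.0718 over the alternatives, and the second without any single Met1 array or SSM2 replicate 2 or 3 (0.0508 to 0.0854, with 0.0069 to 0.0854 over the alternatives). Over the 9 genes, the 3 lower in NDL than in Met1 became 1 without NDL replicate 1 or Met1 replicate 3, and the 2 higher in Met1 than in SSM2 became 5 without SSM2 replicate 1, 1 without Met1 replicate 2 or SSM2 replicate 3, and 0 without Met1 replicate 1 or 3 or SSM2 replicate 2. The 2 higher in NDL than in SSM2 became 0 without NDL replicate 1 or 2, SSM2 replicate 2 or any single Met1 array and 1 without SSM2 replicate 3, and the 1 higher in NDL than in Met1 was lost without any single array but NDL replicate 3 and SSM2 replicates 2 and 3.

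Itgb2, the beta chain that both need, read 7.95, 8.85 and 7.58 in NDL, 9.18, 9.34 and 10.00 in Met1, and 9.02, 8.22 and 7.64 in SSM2. Met1 was again highest on every array, but the differences of -1.38 for NDL against Met1 (adjusted p = 0.0545) and 1.21 for Met1 against SSM2 (adjusted p = 0.115) were not called. The first passed without NDL replicate 2, SSM2 replicate 1 or SSM2 replicate 3 (0.0302 to 0.0377, with 0.0033 to 0.175 over the alternatives), and the second without SSM2 replicate 1 (0.0480, with 0.0480 to 0.322 over the alternatives). Itga4, which binds VCAM-1 and fibronectin on lymphocytes and monocytes, read 6.16, 6.34 and 6.12 in NDL, 7.42, 7.47 and 7.71 in Met1, and 8.01, 6.96 and 6.21 in SSM2. SSM2 spanned the whole range from the NDL to above the Met1 arrays. Itga4 was 2.51-fold lower in NDL than in Met1 (-1.33 ± 0.38, adjusted p = 0.0409), which ended without any single NDL or Met1 array or SSM2 replicate 2 (0.0619 to 0.127, with 0.00101 to 0.242 over the alternatives).

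Itgax (CD11c), the alpha chain used as a marker of dendritic cells and some macrophages, did not share this order. It read 7.61, 7.93 and 7.28 in NDL, 7.35, 7.77 and 7.47 in Met1, and 7.20, 6.34 and 6.07 in SSM2. NDL and Met1 overlapped fully, and every SSM2 array lay below them, but the 0.99 of Met1 over SSM2 was not called (adjusted p = 0.0643, and 0.00863 without SSM2 replicate 1, with 0.00863 to 0.202 over the alternatives). The difference was 0.07 between NDL and Met1 (95% interval -0.59 to 0.74, adjusted p = 0.886), beside -2.16 for Itgam in the same comparison. The difference between the 2 genes was not tested. Itgax was 2.10-fold higher in NDL than in SSM2 (1.07 ± 0.29, adjusted p = 0.0395), which ended without NDL replicate 1 or 2, SSM2 replicate 2 or 3 or any single Met1 array (0.0599 to 0.127, with 0.00647 to 0.423 over the alternatives). Itga2b, the platelet chain, was higher in NDL than in Met1 (0.48, adjusted p = 0.0454) and SSM2 (0.55, adjusted p = 0.0302). Both Itga2b calls ended when most single arrays were left out, the first without any but NDL replicate 3, SSM2 replicate 2 and SSM2 replicate 3 (0.0565 to 0.128), and the second without any but NDL replicate 3, SSM2 replicate 1 and SSM2 replicate 3 (0.0512 to 0.0869). Itgae, which binds E-cadherin on intraepithelial T cells, Itgad and Itgb7 were called in no comparison and stayed between 5.08 and 7.20 on all arrays.

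The windows of Itgam and Itgax, which lie close together on chromosome 7 and differed in their order over the lines, are shown for comparison with the same motifs in capitals. That of Itgam is at chr7:128062390-128062689 and that of Itgax at chr7:128129300-128129599, both on the plus strand of GRCm38.p6 (RefSeq).
Itgam: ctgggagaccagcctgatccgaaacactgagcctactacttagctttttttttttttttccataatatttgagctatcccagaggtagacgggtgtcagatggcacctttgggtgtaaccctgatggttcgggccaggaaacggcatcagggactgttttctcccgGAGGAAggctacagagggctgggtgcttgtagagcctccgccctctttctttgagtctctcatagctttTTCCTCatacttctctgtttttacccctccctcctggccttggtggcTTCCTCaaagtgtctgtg
Itgax: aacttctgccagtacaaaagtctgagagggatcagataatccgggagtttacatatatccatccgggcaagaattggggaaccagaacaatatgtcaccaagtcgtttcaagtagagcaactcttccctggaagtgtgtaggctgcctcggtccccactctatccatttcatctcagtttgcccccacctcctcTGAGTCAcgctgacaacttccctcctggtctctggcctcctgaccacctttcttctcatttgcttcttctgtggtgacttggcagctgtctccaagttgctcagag
The Itgam window holds 3 PU.1-like matches and no AP-1 match, and the Itgax window 1 AP-1 match and no PU.1-like match.

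Markers of leukocytes moved in the same arrays. Of the 8 pan-leukocyte and macrophage genes, 6 were lower in NDL than in Met1 (median difference -1.39), beside 19.1% of all genes called. In Met1, 4 of 8 were higher than in SSM2 (median 1.25), beside 11.8%. In NDL, 1 of 8 was lower than in SSM2, a smaller share than the 16.9% of all genes. The mean of these 8 genes was 8.56 to 9.04 on the NDL arrays, 10.11 to 10.21 on the Met1 arrays and 8.53 to 9.94 on the SSM2 arrays. Among the SSM2 arrays replicate 1 was highest and replicate 3 lowest, as for Itgam, Itgal, Itgb2 and Itga4. This order was not particular to these genes or to leukocyte genes. Itgax, Itgb3, Lama4 and Lamb2 had it too, as did the fibroblast and endothelial list means. The mean of all members also fell in this order (8.05, 7.62 and 7.42), but that of the epithelial marker list did not (10.62, 10.52 and 10.83). The count of 6 became 1 without NDL replicate 1 or Met1 replicate 1 or 3 and 2 without Met1 replicate 2. The count of 4 became 1 without NDL replicate 1 or SSM2 replicate 3 and 0 without SSM2 replicate 2 or any single Met1 array. T and NK cell genes were lower in NDL than in Met1 for 2 of 8 and higher in Met1 than in SSM2 for 2 of 8, with means of 5.06 to 5.36 on the NDL arrays, 5.40 to 5.67 on the Met1 arrays and 4.68 to 5.34 on the SSM2 arrays and with 2 of 8 under the 25th percentile of gene signal on every array. The first of these counts became 1 without NDL replicate 1 and both became 0 without Met1 replicate 2 or 3, as did the second without SSM2 replicate 2. Without NDL replicate 3 there were 2 higher in NDL than in SSM2, and without SSM2 replicate 1 there was 1. On all arrays, 25% of the T and NK cell list was called in NDL against Met1, beside 19.1% of all genes. In Met1 against SSM2 it was 25%, beside 11.8%. No neutrophil gene of 6 and no B cell gene of 3 was called (limma; at an unadjusted p under 0.05, against SSM2, 3 neutrophil genes had lower values in NDL and 1 in Met1, and no B cell gene differed), with list means of 4.37 to 4.88 and 3.95 to 4.32 in NDL, 4.88 to 4.95 and 4.07 to 4.27 in Met1, and 4.53 to 6.61 and 3.97 to 4.34 in SSM2. Without SSM2 replicate 3, the neutrophil genes called lower against SSM2 numbered 5 in NDL and 3 in Met1. Of 4 dendritic cell genes 1 was higher in Met1 than in SSM2, and of 4 platelet genes 1 was lower in NDL than in Met1. That is 25% of each list, beside 11.8% and 19.1% of all genes called. The dendritic cell call ended without Met1 replicate 1 or 3 or SSM2 replicate 1 or 2, and the platelet call without NDL replicate 1 or 3, SSM2 replicate 2 or any single Met1 array. The part of leukocyte number in the integrin differences was not tested.

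**Figure D3:**
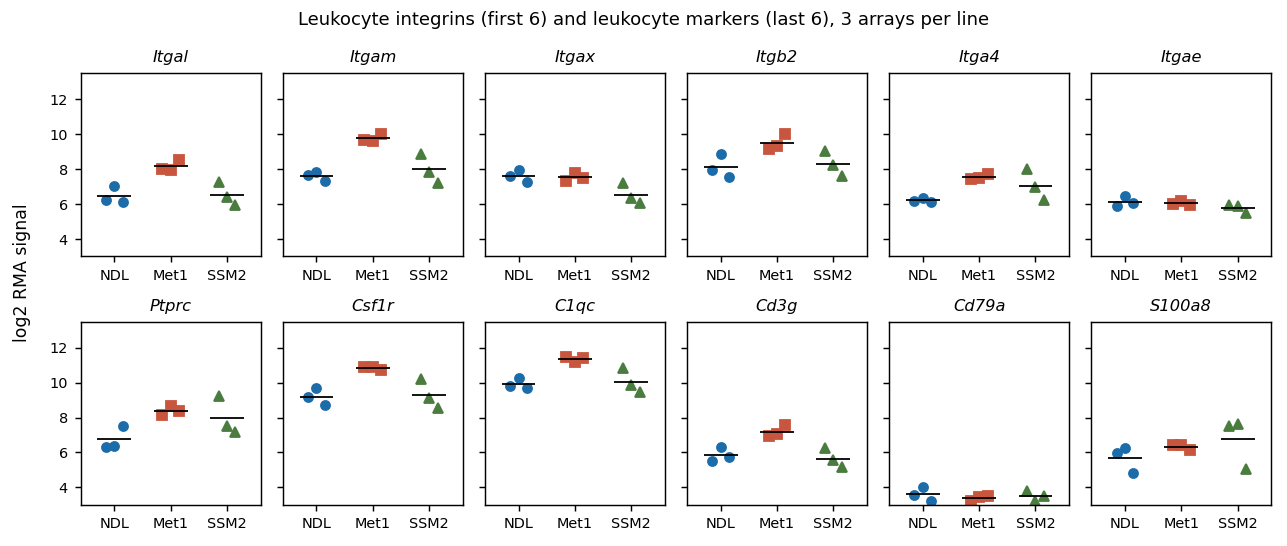
Log2 RMA signal of 6 leukocyte integrin genes (Itgal, Itgam, Itgax, Itgb2, Itga4 and Itgae) and 6 leukocyte marker genes (Ptprc, Csf1r, C1qc, Cd3g, Cd79a and S100a8) on every array, with the mean of each line as a bar, for NDL, Met1 and SSM2. Itgam, Itgal, Csf1r and C1qc are highest on the 3 Met1 arrays, whereas Itgax lies between 7.28 and 7.93 in NDL and Met1 and between 6.07 and 7.20 in SSM2.

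Ligands of these receptors were read from a list of 14 measured matrix proteins, of which 6 were called between NDL and Met1 (3 higher, 3 lower), 4 between NDL and SSM2 (3 higher, 1 lower) and 3 between Met1 and SSM2 (2 higher, 1 lower). Without SSM2 replicate 3, 2 were lower in Met1 than in SSM2. The median difference of the list was 0.11, 0.06 and -0.16 in these comparisons. The share called was 42.9%, 28.6% and 21.4% of the list, beside 19.1%, 16.9% and 11.8% of all genes. Npnt, nephronectin, the ligand of the Itga8 integrin, read 10.92, 10.87 and 11.41 in NDL, 8.34, 8.74 and 9.04 in Met1, and 9.52, 8.57 and 8.41 in SSM2. NDL was above all other arrays, and Met1 and SSM2 overlapped. Npnt was higher in NDL than in Met1 by 2.36 ± 0.31 (adjusted p = 0.00132) and than in SSM2 by 2.23 ± 0.31 (adjusted p = 0.00221). Thus receptor and ligand were both at their higher level in NDL, Met1 had the higher level of Itga8 but not of Npnt, and SSM2 of neither.

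Fn1, fibronectin, was lower in NDL than in Met1 (-1.76, adjusted p = 0.00209) and SSM2 (-2.38, adjusted p = 0.00056), with 10.86 ± 0.33 in NDL, 12.62 ± 0.04 in Met1 and 13.24 ± 0.52 in SSM2 (SD, n = 3 each). Tgfb3, whose latent form binds Itgav integrins, was higher in NDL than in Met1 (2.45, adjusted p = 0.00578) and SSM2 (2.84, adjusted p = 0.00368). Tnc, tenascin-C, a ligand of the Itga8 and Itga9 integrins, was lower in Met1 than in SSM2 (-2.84, adjusted p = 0.0111). It was higher in NDL than in Met1 (1.89, adjusted p = 0.0430), a call that ended without any single NDL array, Met1 replicate 1 or 3 or SSM2 replicate 2 (0.0656 to 0.139). The matricellular genes Ccn1 (2.03, adjusted p = 0.00191) and Ccn3 (1.21, adjusted p = 0.0199) were higher in Met1 than in SSM2, and the Ccn3 call ended without Met1 replicate 2 or 3 or SSM2 replicate 2 (0.0544 to 0.0747). Mfge8, milk fat globule protein, an Itgav ligand, was higher in NDL than in SSM2 (1.16, adjusted p = 0.0456). This call held only without SSM2 replicate 1 or 3 among the single arrays left out (0.0583 to 0.140 without the others).

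Of 13 basement membrane components other than laminins, 4 were higher and 3 lower in NDL than in Met1, 2 higher in NDL than in SSM2 and 4 higher in Met1 than in SSM2. Without NDL replicate 1 the first count was 2, and without NDL replicate 3 the third was 5. The last was 2 without Met1 replicate 1 or 2 or SSM2 replicate 2. On all arrays, 53.8%, 15.4% and 30.8% of the 13 were called, beside 19.1%, 16.9% and 11.8% of all genes. Col4a6, a collagen IV chain of epithelial basement membranes, was higher in NDL than in Met1 (1.69, adjusted p = 4.32e-05) and SSM2 (1.75, adjusted p = 3.23e-05), and its NDL arrays, at 7.03, 7.24 and 6.97, were above all of Met1 and SSM2, which reached 5.52 and 5.37. Agrn, agrin, a laminin-binding proteoglycan, was lower in NDL than in Met1 (-1.35, adjusted p = 0.000858) and higher in Met1 than in SSM2 (0.81, adjusted p = 0.0142). Hspg2, perlecan, was likewise lower in NDL than in Met1 (-1.14, adjusted p = 0.00885) and higher in Met1 than in SSM2 (0.85, adjusted p = 0.0435). Col4a5 was higher in NDL (1.31, adjusted p = 0.00809) and in Met1 (1.58, adjusted p = 0.00407) than in SSM2, Col4a2 higher in NDL than in Met1 (0.86, adjusted p = 0.0119), and Col18a1 higher in Met1 than in SSM2 (0.89, adjusted p = 0.0107). Between Met1 and SSM2 the Agrn call ended without Met1 replicate 1 or 2 or SSM2 replicate 2 (0.0526 to 0.0657), and that of Hspg2 without any single array but NDL replicate 3 and SSM2 replicate 1 (0.0513 to 0.131). The Col4a2 call ended without NDL replicate 1 (0.0521).

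Hemidesmosome and tetraspanin partners numbered 8, with 1 higher in NDL than in Met1, 2 lower in NDL than in SSM2 and 3 lower in Met1 than in SSM2. The 1 of 8 between NDL and Met1 was a smaller share than the 19.1% of all genes called. The 2 of 8 and 3 of 8 against SSM2 were larger shares than the 16.9% and 11.8% of all genes. Without NDL replicate 3 or SSM2 replicate 3, 2 of the 8 partners were higher in NDL than in Met1. Lad1, ladinin, an anchoring filament protein, was higher in NDL than in Met1 (2.97, adjusted p = 0.000525) and lower in Met1 than in SSM2 (-2.66, adjusted p = 0.0014). Col17a1, the transmembrane collagen of hemidesmosomes, was lower in NDL (-1.84, adjusted p = 0.00291) and in Met1 (-1.79, adjusted p = 0.00386) than in SSM2, as Lamb3 was. Plec, plectin, was lower in NDL than in SSM2 by 0.86 (log2 difference -0.86, adjusted p = 0.0247), and Col7a1, the anchoring fibril collagen, lower in Met1 than in SSM2 (-0.81, adjusted p = 0.0180). The Plec call ended without NDL replicate 1 or SSM2 replicate 1 (0.0680 and 0.0689), and the Col7a1 call without Met1 replicate 1 or 3 or SSM2 replicate 1 or 2 (0.0532 to 0.0724). Of 5 other laminin receptors, Sgcb, a sarcoglycan of the dystroglycan complex, was lower in NDL than in Met1 (-0.99, adjusted p = 0.0291) and higher in NDL (1.41, adjusted p = 0.00776) and Met1 (2.40, adjusted p = 0.000788) than in SSM2. Bcam, a receptor for the Lama5 chain, was lower in Met1 than in SSM2 (-1.34, adjusted p = 0.00626) and in NDL than in SSM2 (-0.78, adjusted p = 0.0493). The Sgcb call between NDL and Met1 ended without NDL replicate 1 or 2 or any single Met1 array (0.0696 to 0.0960), and that of Bcam between NDL and SSM2 without any single array but SSM2 replicate 3 (0.0660 to 0.152). Without that array, 2 of the 5 were lower in NDL than in SSM2, and 2 in Met1 than in SSM2. With it, 20%, 40% and 40% of the 5 were called in NDL against Met1, NDL against SSM2 and Met1 against SSM2. Of all genes, 19.1%, 16.9% and 11.8% were called in these comparisons.

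Inside the cell, 21 adaptors and kinases were measured, with 3 higher and 5 lower in NDL than in Met1. In NDL against SSM2, 1 was higher and 1 lower, and in Met1 against SSM2, 4 were higher and 2 lower. Called were 38.1%, 9.52% and 28.6% of the list in these comparisons, beside 19.1%, 16.9% and 11.8% of all genes. The 3 higher against Met1 became 1 without NDL replicate 1 or Met1 replicate 1 or 3 and 5 without NDL replicate 3 or SSM2 replicate 3. The 5 lower became 3 without NDL replicate 1 or Met1 replicate 1 or 3 and 2 without Met1 replicate 2. Against SSM2 the higher count in NDL became 3 without NDL replicate 3 and 2 without SSM2 replicate 1, and the lower count 2 without SSM2 replicate 3. Fermt1, the kindlin of epithelial cells, was higher in NDL than in Met1 (2.20, adjusted p = 0.00166) and lower in Met1 than in SSM2 (-2.43, adjusted p = 0.00162). Fermt3, the kindlin of blood cells, was lower in NDL than in Met1 (-1.09, adjusted p = 0.00924), with 7.36 ± 0.29 in NDL and 8.46 ± 0.09 in Met1 (SD, n = 3 each). Thus the epithelial and the blood-cell kindlin differed in opposite directions between NDL and Met1. Itgb1bp1, which binds the tail of Itgb1, was lower in NDL than in Met1 (-1.15, adjusted p = 0.00403) and higher in Met1 than in SSM2 (1.29, adjusted p = 0.00355). Tln1, talin, was lower in NDL than in Met1 (-0.85, adjusted p = 0.0264), a call that ended without NDL replicate 1 or any single Met1 array (0.0589 to 0.0938). In Met1 against SSM2, Parvg, the leukocyte parvin, was higher (1.61, adjusted p = 0.00471) and Tns4, an epithelial tensin, lower (-2.31, adjusted p = 0.00581). The calls between NDL and SSM2 were Ilk, integrin-linked kinase (0.78, adjusted p = 0.00705), and Vcl, vinculin (-0.80, adjusted p = 0.00622).

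Of 8 cell-surface ligands of leukocyte integrins, Cdh1, E-cadherin, the ligand of the Itgae integrin, was higher in NDL than in Met1 (2.71, adjusted p = 0.00173) and lower in Met1 than in SSM2 (-3.42, adjusted p = 0.000915). F11r, a junctional ligand of LFA-1, went the same way (1.56, adjusted p = 0.00366, and -1.55, adjusted p = 0.0056). Icam1, the main ligand of LFA-1, had a lower signal in NDL than SSM2 (-1.12, adjusted p = 0.0483), a call that ended without NDL replicate 1 or 3, Met1 replicate 1 or 2 or SSM2 replicate 1 or 2 (0.0635 to 0.158). No other gene of this list was called in any comparison, and without Met1 replicate 3 or SSM2 replicate 3 the number lower in NDL than in SSM2 was 2. On all arrays, 25% of the list was called in NDL against Met1 and in Met1 against SSM2, beside 19.1% and 11.8% of all genes. In NDL against SSM2 it was 1 of 8, a smaller share than the 16.9% of all genes.

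**Figure D4:**
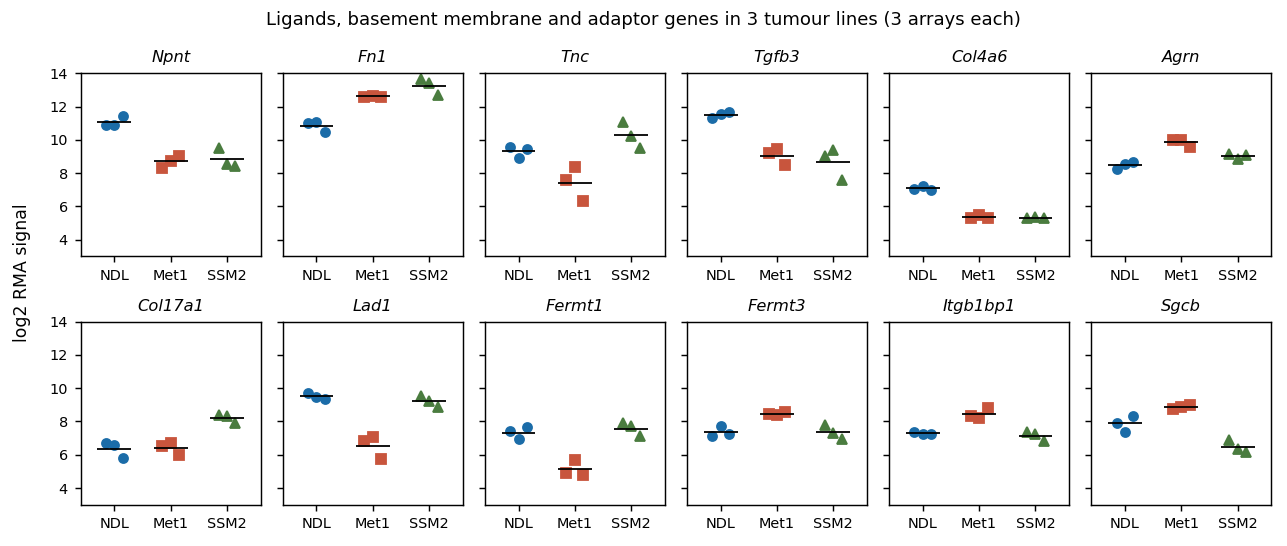
Log2 RMA signal of 12 ligand, basement membrane, hemidesmosome and adaptor genes on every array, with the mean of each line as a bar, for NDL, Met1 and SSM2. Npnt, Tgfb3 and Col4a6 are highest on the 3 NDL arrays, Col17a1 on the 3 SSM2 arrays, and Fermt1 and Lad1 are lowest on the 3 Met1 arrays.

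Read by line, 6 members (16.7%) were called highest in Met1 against both other lines: Itga5, Itga10, Itgal, Itgam, Lamb1 and Lamc1, where 4.09% of all genes were. Without single arrays this number lay between 3 (Met1 replicate 1 or 3) and 8 (SSM2 replicate 1), and it was 4 without Met1 replicate 2 or SSM2 replicate 2. Itga5, Itga10 and Lamc1 kept this pattern whichever array was left out. Called highest in NDL were Itga9, Itgb3, Itga2b and Lamb2 (11.1%, against 5.13% of all genes), of which only Lamb2 kept the pattern whichever array was left out. The number was 1 without NDL replicate 1 or 2 or any single Met1 array, and 2 without SSM2 replicate 2 or 3. Itga8 and Itga11 were called lowest in SSM2 (5.56%, against 2.26%) whichever array was left out, joined by Itga9 and Itgax without SSM2 replicate 1 and by Itga10 without NDL replicate 3. Lamb3 was the single member called lowest in Met1 (2.18% of all genes) and the single one called highest in SSM2 (1.91%), and Itgav the single one called lowest in NDL (3.59%). Lamb3 was no longer called lowest in Met1 without NDL replicate 1 or 2, Met1 replicate 1 or 3 or SSM2 replicate 1 or 2, nor highest in SSM2 without NDL replicate 1. Without SSM2 replicate 3, Itgb6 joined it in both patterns and Lama2 in the second, and Lama3 joined the second without NDL replicate 3 or SSM2 replicate 2. Itgav kept its pattern whichever array was left out, joined by Itga3, Itga4, Lama5 and Lamb1 without SSM2 replicate 3, Lama5 without Met1 replicate 3, Itga5 without NDL replicate 2 and Itgb1 without NDL replicate 3.

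All arrays had upper quartiles of gene signal between 7.84 and 8.09, with NDL replicates 1 and 2 lowest at 7.85 and 7.84. In these female hosts the 3 measured Y-linked genes gave signals of 2.61 to 3.85. Equal deposited values on at least 2 arrays were found for 7602 genes (38.1%), 7 of them members, and all 3 arrays of a line were equal for 640 genes, among the members only Lama2 in NDL and Lama3 in Met1. Arrays have no read depth, and their number limits the precision. Of the smooth muscle and pericyte markers, 4 of 7 were higher in NDL than in Met1 and 3 of 7 lower in Met1 than in SSM2. These were 57.1% and 42.9% of the list, beside 19.1% and 11.8% of all genes called. None was called between NDL and SSM2 (limma, 1 lower at an unadjusted p under 0.05). The count of 4 became 2 without NDL replicate 1 or 2 or any single Met1 array, and 1 gene was called lower in NDL than in SSM2 without NDL replicate 3 or SSM2 replicate 2.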

How the data were processed

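Total RNA of 9 snap-frozen tumour samples (100 ng each, miRNeasy FFPE kit, Ambion WT Expression and Affymetrix WT labelling, per the labels' protocols) was hybridised to Affymetrix Mouse Gene 1.0 ST arrays. The deposited values are log2 signals made by the authors with RMA, which corrects background, scales arrays by quantiles and summarises probes (oligo 1.40.2, per the submitters' processing notes). Of 35556 features, 21789 had 1 gene symbol in the platform annotation, 1621 several and 12146 none, and 21698 of those with 1 symbol were matched to RefSeq. The feature with the highest mean stood for a gene, which left 19938 genes with no filter on signal. Of the members, only Itgad had 2 features.

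The log2 values were fitted in limma 3.58.1 (lmFit and eBayes, under R 4.3.3 with data.table version 1.17.8) on all 9 arrays with line as the only term, 6 residual and 2.42 prior degrees of freedom. The 3 contrasts were two-sided and adjusted by Benjamini-Hochberg over all genes, and an adjusted p under 0.05 was a call. Errors are standard errors for differences and SDs for means. Members given array by array were Itga8, Itga6, Itgb4, Lama3, Lamb3 and all called with at least a 2-fold difference. Itgb1 and Itgb2 were added after their values were seen, as were the promoters to print and the patterns by line. Other members are named where called. Of each pathway list every called gene is named where 5 or fewer were called in a contrast, otherwise the 4 with the largest differences. Members, roles and lists were chosen with earlier results of these data known, so their counts are descriptions. Some genes of the lists were not analysed here.

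Alternatives were a filter at the 25th percentile of mean signal, an intensity trend with a robust prior, array weights, cyclic loess, equalised array medians, averaging a gene's features, fits of 2 lines alone, the replicate number as a block, each array left out in turn, and NDL replicates 1 and 2 left out together. Leaving out genes with 3 equal values in a line was added after seeing the data. The fit was tested on simulated data. Promoter windows came from RefSeq (GRCm38.p6), figures from matplotlib 3.10.9 and pandas 2.3.3.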

Additional observations from a re-analysis of the deposited data

How the results depend on the processing

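Of the 37 calls among the members, 13 held in all 19 alternatives (Lama3, in NDL against SSM2, in the 18 that tested it), 24 ended in at least 1, and none reversed. The members higher in NDL than in Met1 numbered 6, and 3 with the replicate number as a block, 2 without NDL replicates 1 and 2, and 1 to 6 without single arrays. Those lower in NDL than in Met1 numbered 9, and 14 with array weights, 4 without NDL replicates 1 and 2, and 7 to 11 without single arrays. Those higher in NDL than in SSM2 numbered 8, and 5 from the 2 lines alone, 2 without NDL replicates 1 and 2, and 5 to 9 without single arrays. Those lower in NDL than in SSM2 numbered 4, and 9 with array weights and 2 to 9 without single arrays. Those higher in Met1 than in SSM2 numbered 8, and 5 to 12 without single arrays. Those lower in Met1 than in SSM2 numbered 2, and 4 with array weights, 1 from the 2 lines alone, 1 without NDL replicates 1 and 2, and 1 to 3 without single arrays. Each array left out leaves fewer samples. Leaving out NDL replicates 1 and 2 leaves 1 NDL array, assumed to vary like the other lines, and ended 21 calls; the cause of the other changes was not tested.

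Over all genes, 3814 were called between NDL and Met1, 3364 between NDL and SSM2 and 2356 between Met1 and SSM2. With array weights these became 10121, 7738 and 3724. Without NDL replicate 3 they were 6631, 7018 and 2754, and without NDL replicates 1 and 2 they were 1702, 1190 and 2314. Fitted alone, NDL and SSM2 gave 1755. Other single arrays left out gave 2371 to 4250, 1873 to 3199 and 1360 to 2466. The setting chosen after seeing the data, without genes of 3 equal values in a line, left out Lama2 and Lama3 and ended no other call. Cyclic loess and equal medians moved the median of all genes by under 0.1. Same-numbered arrays of different lines did not deviate together (correlations of deviations from the line means, over genes, from -0.347 to 0.288), so the numbers are not read as pairs. The block ended 7 member calls and added 2. Signal over background limits Itgb6 in Met1.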

Other observations

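The 2 features of Itgad on the array differed in their order over the lines: the one used read 5.68, 5.69 and 5.08 in NDL, 5.75, 5.77 and 5.61 in Met1, and 5.60, 5.67 and 5.61 in SSM2, and the other 5.56, 5.79 and 5.66 in NDL, 5.55, 5.38 and 5.39 in Met1, and 5.20, 5.37 and 5.27 in SSM2. A further 3 features carry Itgam together with another symbol and were not used. Itgb6 in SSM2 replicate 3 (5.95, against 9.14 and 9.58 in SSM2 replicates 1 and 2) and Itga2 in SSM2 replicate 1 (8.51, against 6.29 and 6.23) were the members with the widest gaps among SSM2 arrays, and Lama2 ran from 5.69 to 7.84 there. On the same 3 SSM2 arrays, in order of replicate, the epithelial marker list averaged 10.62, 10.52 and 10.83, and the fibroblast list 10.58, 9.79 and 8.88. Itgb1 in NDL replicate 2 read 8.88, the lowest of any array for that gene, with 10.02 and 10.88 in the other NDL samples.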
